A study of Mus musculus with 15 samples.

Results

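Sites of RNA crosslinking were described for the mRNAs of 7 interleukin genes of the macrophage response: the agonists Il1a and Il1b, their antagonist Il1rn, and Il6, Il10, Il12b and Il23a. A site belonged to them when it lay on the sense strand within one of these genes in the mm10 genome (GENCODE release M21). They are 7 of 21028 protein-coding genes with an annotated 3′UTR, and they held 85 of the 162273 sites in the 6 deposited lists, with 112 of the cDNAs. Of these sites, 81 (108 cDNAs) lay in the 3′UTRs of Il1a, Il1b and Il1rn, and 4 (4 cDNAs) lay in an intron of Il10. Il6, Il12b and Il23a had no site in any list, and none of the 7 genes had a site in its coding sequence, in its 5′UTR, on the opposite strand or within 1000 nt downstream of its end.

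The sites came from individual-nucleotide resolution crosslinking and immunoprecipitation (iCLIP), in which UV light links a protein to the RNA it touches and reverse transcription stops next to the link. The bait was GFP-tagged tristetraprolin (TTP) or GFP-tagged TTP-AA, whose MK2 phosphorylation sites were changed from serine to alanine, purified with a GFP-Nanotrap. All 6 groups were immortalised bone marrow-derived macrophages of C57BL/6 background that lack endogenous TTP and carry the oncogenes hcmyc and hRasG12V, and all had 6 h of doxycycline, which switches on the tagged protein from a retroviral, tet-inducible vector. Lipopolysaccharide (LPS) was given for 1 h or for 4 h or was left out (0 h), and each list is the sum of 2 to 4 libraries, so that it has no replicate values. The vectors carry the TTP coding sequence, and expression follows doxycycline rather than the inflammatory induction of the endogenous gene. The lists held between 19167 and 174397 cDNAs, of which between 906 and 93510 lay in 3′UTRs. A count of 0 allows up to 3 cDNAs, which is between 0.00172% and 0.0157% of a list and between 0.00321% and 0.331% of its 3′UTR cDNAs. The lists hold only sites that passed the authors' peak filter, and this limit does not cover crosslinks that the filter removed. The 3′UTRs of all 7 macrophage marker genes examined (Adgre1, Itgam, Csf1r, Cd68, Lyz2, Cd14 and Mrc1) held at least 3 cDNAs in the TTP-AA list at 1 h, the lowest being Cd68 with 3 and the highest Lyz2 with 143. In that list 21.2% of all genes had a 3′UTR site. Of the 7 markers, 3 had one in the TTP list at 1 h (6.16% of all genes) and 1 in the TTP list at 0 h (3.51%). No marker had one in the other lists.

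TTP is a zinc finger protein that binds AU-rich elements, stretches of the 3′UTR built from the pentamer AUUUA, and recruits the enzymes that remove the poly(A) tail. The kinase MK2, which inflammatory signals activate, phosphorylates TTP and weakens this recruitment, so that many cytokine mRNAs are stabilised soon after LPS. Interleukin-1α and interleukin-1β activate the interleukin-1 receptor and the interleukin-1 receptor antagonist, the product of Il1rn, occupies it without signalling. Interleukin-6 is a cytokine of the acute-phase response, interleukin-10 limits inflammation, and the products of Il12b and Il23a are the shared and the specific subunit of interleukin-23.

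The sequences that carried the sites are shown first, each as 30 nt of the mRNA, 5′ to 3′, with AUUUA or UGUGU in capitals. They are the windows with the most cDNAs over all lists in the main cluster of Il1a and in each cluster of Il1b and Il1rn, where a cluster joins sites at most 15 nt apart. The Il1a window (minus strand, chr2:129300097-129300126) held 14 of the 25 cDNAs of its gene, and the first Il1b window (minus strand, chr2:129364801-129364830) held 40 of 54. The second Il1b window (minus strand, chr2:129364636-129364665) had no AUUUA. The 4 Il1rn windows (plus strand, chr2:24350359-24350388, chr2:24350434-24350463, chr2:24350722-24350751 and chr2:24350785-24350814) held 4, 5, 15 and 5 cDNAs of 29, and the second and the fourth had no UGUGU.
Il1a, AU-rich window: uAUUUAuaaauauAUUUAugauaauuauau
Il1b, AU-rich window: uuaccuAUUUAUUUAuguAUUUAuugauug
Il1b, second window: ccuauaauauggaugagacuuuuuaugaau
Il1rn, first window: uuuccuucuuuccuuauuuUGUGUgaugcc
Il1rn, second window: ucucccccuucuuuuuuuuuccuuuggaaa
Il1rn, GU run: UGUGUGUGUGUGUGUGUGUGUGUGUGUGUg
Il1rn, window after the GU run: augcacaugcuauguauugggucccuccaa

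For the mRNAs without a 3′UTR site, a 30-nt window with most AUUUA is shown so that it can be set beside those of Il1a and Il1b. Where several stretches tie, as in Il6, Il10 and Il23a, the first is shown. In Il10 no window holds more than 1 AUUUA. These windows lie at chr5:30019684-30019713 for Il6, chr1:131024384-131024413 for Il10 and chr11:44413473-44413502 for Il12b, all on the plus strand, and at chr10:128296179-128296208 on the minus strand for Il23a.
Il6, no site: auuuuuaAUUUAuugauaAUUUAaauaagu
Il10, no 3′UTR site: cucucuccgaaauAUUUAuuaccucugaua
Il12b, no site: AUUUAaguaAUUUAuguAUUUAuuaAUUUA
Il23a, no site: ugaugguuAUUUAuucuAUUUAuaaggaau

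Only the sense strand of the transcript was searched. AUUUA occurred in 65.2% of the 21028 annotated 3′UTRs and in 4.71% of all 30-nt windows of these 3′UTRs. The decamer UGUGUGUGUG occurred in 8.74% of the 3′UTRs and in 0.252% of the windows, and UGUGU in 72.4% of the 3′UTRs. Among the 7 mRNAs, Il6 had 10 AUUUA on its longest annotated 3′UTR of 1668 nt, which includes sequence that is spliced out of the other annotated forms, and 6 on the 427 nt of the transcript with its longest coding sequence. Il10 had 6 in 706 nt, Il12b 6 in 797 nt, Il23a 6 in 657 nt, Il1b 4 in 459 nt and Il1a 3 in 1101 nt. Il1rn had none in its 1864 nt. The longer match UUAUUUAUU, found in 7.66% of 3′UTRs, occurred once among the 7, in Il23a.

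Il1b (ENSMUSG00000027398.13, chromosome 2, 129364570 to 129371139, minus strand) was the interleukin mRNA with the most cDNAs. Its 3′UTR (129364570 to 129365028) held 51 cDNAs at 32 sites in the TTP-AA list at 1 h (95% Poisson interval 38.0 to 67.1), which placed it 324th of 4468 genes by cDNAs. It held 3 cDNAs at 3 sites in the TTP list at 1 h (0.619 to 8.77), which placed it 573rd of 1295. The other 4 lists held 0. Per length of the 3′UTR, the TTP-AA value was 111 cDNAs per kb, the 135th highest of 4468 genes, whose median was 6.09 (quartiles 2.33 and 16.9).

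The Il1b sites formed 2 clusters. The first ran from nt 196 to nt 240 after the stop codon, overlaps the AUUUA that start at nt 205, 209, 217 and 237, and held 42 of the 51 TTP-AA cDNAs and all 3 TTP cDNAs. The most used nucleotide was nt 208, a U inside the first of the overlapping pentamers of the window shown above, with 6 cDNAs in the TTP-AA list, and its neighbour nt 209 held 4. The TTP sites were at nt 209, 215 and 219, with 1 cDNA each. All 3 lay within the span of the TTP-AA sites, and nt 209 and nt 219 were also TTP-AA sites. The second cluster, nt 369 to 388, held 9 TTP-AA cDNAs at 6 sites and none of TTP, and no AUUUA lay within 20 nt of it.

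Il1a (ENSMUSG00000027399.1, chromosome 2, 129299610 to 129309972, minus strand) had sites in 1 list. Its 3′UTR (129299610 to 129300710) held 25 cDNAs at 22 sites in the TTP-AA list at 1 h (16.2 to 36.9), or 22.7 per kb, and 0 in each of the other 5 lists. It ranked 811th of 4468 genes by cDNAs and 866th by cDNAs per kb. Of the 25 cDNAs, 22 fell between nt 560 and nt 614, over and just upstream of the AUUUA that start at nt 586, 598 and 616, and 3 between nt 237 and nt 252, away from any AUUUA. No nucleotide of Il1a held more than 2 cDNAs, and 19 of the 22 sites had 1, beside 21 of 32 in Il1b, so that the cDNAs of both mRNAs were spread over many nucleotides.

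Il1rn (ENSMUSG00000026981.15, chromosome 2, 24336853 to 24351494, plus strand) was the member with sites in the most lists. Its 3′UTR (24349631 to 24351494) held 7 cDNAs at 5 sites in the TTP list at 1 h (2.81 to 14.4), 18 cDNAs at 15 sites in the TTP-AA list at 1 h (10.7 to 28.4) and 4 cDNAs at 4 sites in the TTP list at 4 h (1.09 to 10.2). Both lists at 0 h and the TTP-AA list at 4 h held 0. By cDNAs it ranked 220th of 1295 genes, 1144th of 4468 and 36th of 127 in these lists. Per kb, the values were 3.76, 9.66 and 2.15, against medians over genes with a site of 2.22, 6.09 and 1.69.

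**Figure D1:**
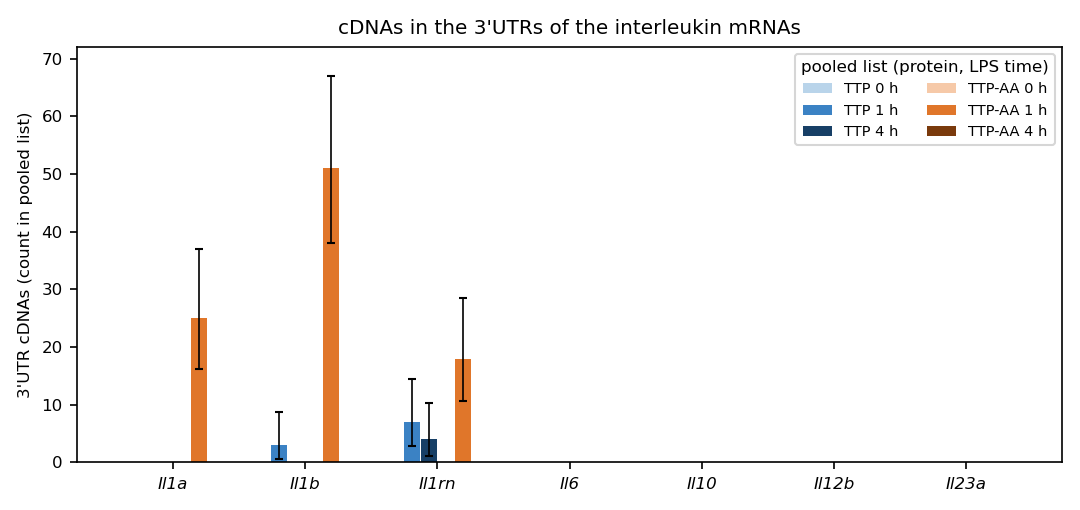
cDNAs in the 3′UTR of each interleukin gene (vertical axis, counts from 0) in the 6 pooled lists, blue for TTP and orange for TTP-AA, darker with later LPS time. Lines are 95% Poisson intervals, which cover counting error only. The TTP-AA list at 1 h reaches 51 for Il1b, 25 for Il1a and 18 for Il1rn, and Il6, Il10, Il12b and Il23a have no bar.

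No Il1rn cDNA lay near an AUUUA, since the 3′UTR has none. The sites fell in 4 clusters along the 3′UTR. The first, nt 739 to 749, held 1 cDNA of TTP and 3 of TTP-AA, both at 1 h. The second, nt 812 to 825, held 5 TTP-AA cDNAs, and the fourth, nt 1168 to 1171, also held 5 TTP-AA cDNAs. The third, nt 1103 to 1111, held 6 cDNAs of TTP and 5 of TTP-AA at 1 h and all 4 TTP cDNAs at 4 h. It lies within an unbroken GU run of 43 nt (nt 1083 to 1125). A UGUGU lay wholly within 20 nt of 7 of 7 TTP cDNAs at 1 h, 8 of 18 TTP-AA cDNAs at 1 h and 4 of 4 TTP cDNAs at 4 h. The GU run alone gave 6 of these 7, 5 of these 8 and all 4. The same share over all genes was not computed, and UGUGU occurs in 72.4% of annotated 3′UTRs, so no preference of a protein is read from these counts.

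**Figure D2:**
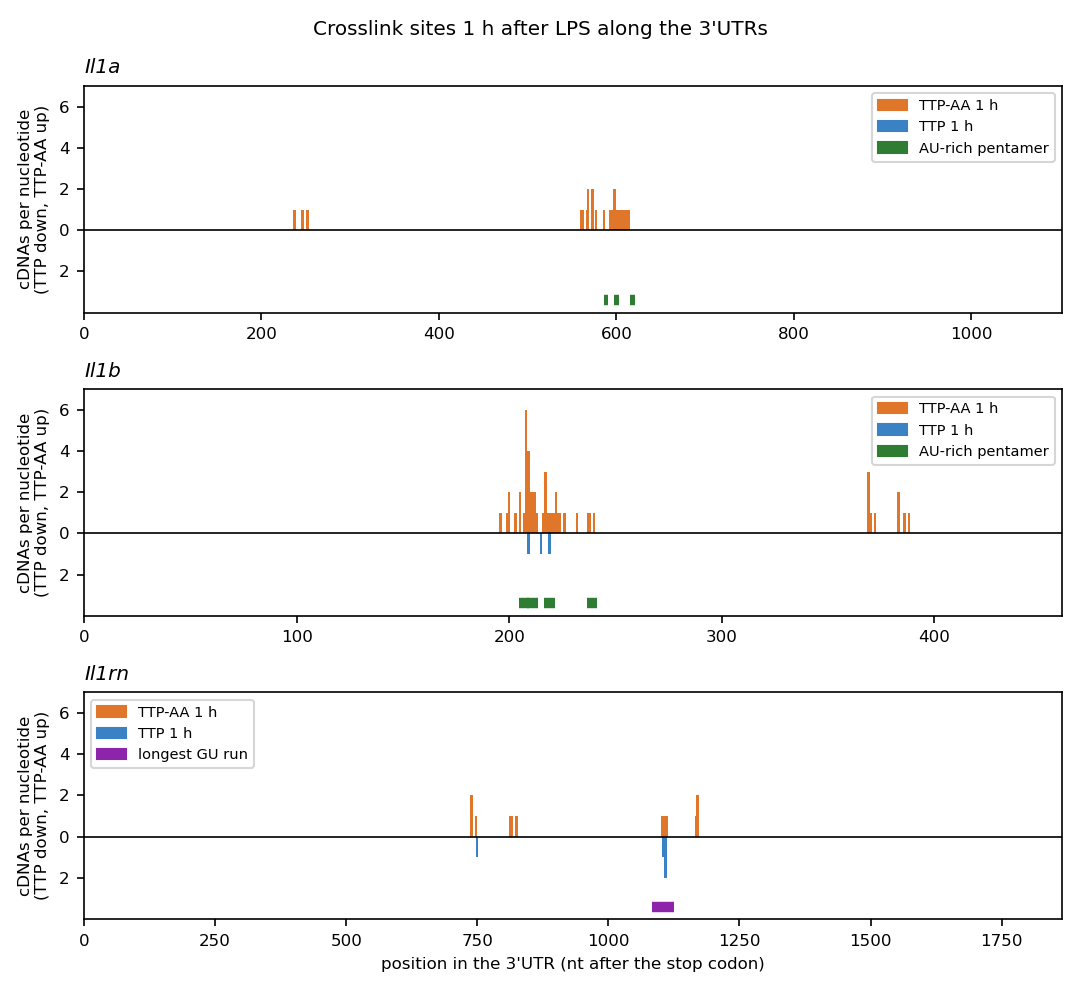
cDNAs per nucleotide at 1 h of LPS along the 3′UTRs of Il1a, Il1b and Il1rn (horizontal axis, nt after the stop codon, a scale for each gene), with TTP-AA above and TTP below the line. Green marks are AU-rich pentamers and the purple mark is the GU run. The TTP-AA cDNAs of Il1b peak at 6 over the pentamers, those of Il1a stay at 1 or 2 around its 3 pentamers, and the sites of Il1rn reach 2.

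Within the GU run, the proteins were crosslinked at alternate nucleotides. The 4 TTP sites at 1 h were at nt 1104, 1106, 1108 and 1110, with 1, 1, 2 and 2 cDNAs, and the 4 TTP sites at 4 h were at the same 4 nucleotides with 1 cDNA each. The 5 TTP-AA sites at 1 h were at nt 1103, 1105, 1107, 1109 and 1111, with 1 cDNA each. All 8 TTP sites of the 2 lists thus fell on a U and all 5 TTP-AA sites on a G, so that no nucleotide of the run was shared between the proteins. The 30 nt downstream of a site, where the sequenced cDNA begins, occurred in annotated transcripts of up to 8 other genes, and this held for 3 of the 4 TTP sites at 1 h, 4 of the 5 TTP-AA sites and 3 of the 4 TTP sites at 4 h. For the sites of Il1a and Il1b and for the other Il1rn sites it held for none. Genome sequence outside annotated transcripts was not searched. The part of the repeat in these positions was not tested.

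**Figure D3:**
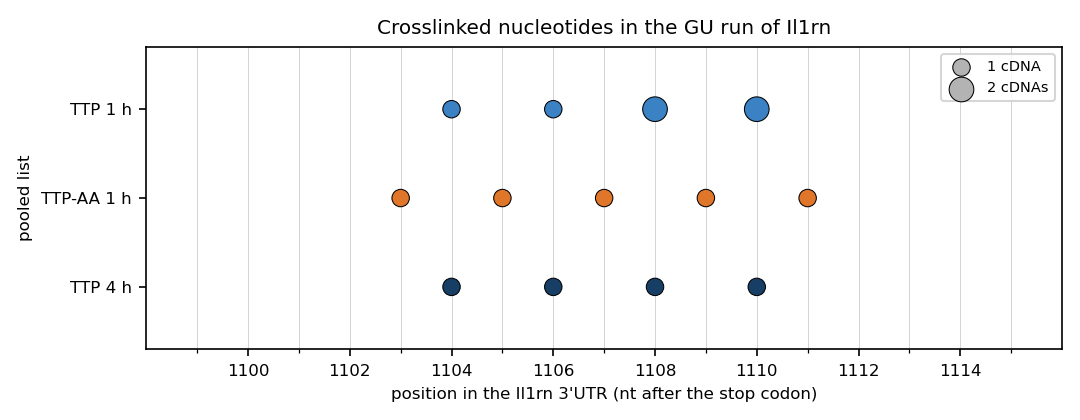
Crosslinked nucleotides in the GU run of the Il1rn 3′UTR (horizontal axis, nt after the stop codon) in the 3 lists that have sites there, with circle area in proportion to cDNAs. TTP sites at 1 h and 4 h sit on nt 1104, 1106, 1108 and 1110, and TTP-AA sites sit on the nucleotides between and beside them.

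Il10 (ENSMUSG00000016529.5, chromosome 1, 131019845 to 131024974, plus strand) had no exonic site. The TTP list at 0 h held 4 cDNAs in the gene, 1 at each of 131023933, 131023934, 131023938 and 131023942. These positions lie in intron 4, which has 1621 nt, between 234 and 243 nt upstream of exon 5. The other 5 lists held 0 there. The 3′UTR of Il10 (131024269 to 131024974), with 6 AUUUA, held 0 cDNAs in all 6 lists.

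Il6 (ENSMUSG00000025746.11, chromosome 5, 30013114 to 30019981, plus strand), Il12b (ENSMUSG00000004296.14, chromosome 11, 44400063 to 44414033, plus strand) and Il23a (ENSMUSG00000025383.2, chromosome 10, 128296139 to 128298752, minus strand) had no cDNA in any list. In the most deeply sampled list, TTP-AA at 1 h, 0 cDNAs allows up to 3, or 0.00321% of its 3′UTR cDNAs, against 0.0267% for Il1a and 0.0545% for Il1b. The interleukin mRNAs without 3′UTR sites were not those with the fewest AUUUA. Il6, Il10, Il12b and Il23a had 6 or more AUUUA on their longest 3′UTR, whereas Il1a, Il1b and Il1rn had 3, 4 and 0. Over all genes the share with a TTP-AA site at 1 h was 32.8% of 3556 3′UTRs with 6 or more AUUUA, 30% of 3943 with 3 to 5, 23.5% of 6202 with 1 to 2 and 9.01% of 7327 with none, and the median length of these classes rose from 311 nt for none to 3114.5 nt for 6 or more. The lists do not measure mRNA levels and hold only sites that passed the authors' filter at an FDR of 0.05. Fewer mRNA molecules, fewer crosslinks per molecule and crosslinks removed by that filter thus cannot be told apart for any of the 7 genes.

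The number of interleukin mRNAs with a 3′UTR site was 2 of 7 in the TTP list at 1 h (6.16% of all genes had one), 3 of 7 in the TTP-AA list at 1 h (21.2%) and 1 of 7 in the TTP list at 4 h (0.604%). It was 0 of 7 at 0 h in the TTP list (3.51%) and the TTP-AA list (4.25%) and 0 of 7 in the TTP-AA list at 4 h (0.942%). Where they had exonic signal, it was in the 3′UTR alone. At 1 h, 69 of 69 TTP-AA sites and 8 of 8 TTP sites of the interleukin genes were 3′UTR sites (Wilson intervals 94.7% to 100% and 67.6% to 100%), beside 87.8% and 53.2% of the sense sites in all protein-coding genes. These sites come from 3 and 2 mRNAs and lie in clusters of nearby nucleotides. The intervals treat them as independent and are thus too narrow for a statement about mRNAs.

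After 1 h of LPS, 59 of the 94 TTP-AA cDNAs in these 3′UTRs had an AUUUA wholly within 20 nt, or 62.8% (Wilson interval 52.7% to 71.9%), beside 40.7% of all 3′UTR cDNAs of that list. A pentamer that lay only in part within 20 nt of a site did not count. The share differed between the members, with 42 of 51 in Il1b (82.4%), 17 of 25 in Il1a (68%) and 0 of 18 in Il1rn. In the TTP list it was 3 of 10, or 30% (10.8% to 60.3%), beside 43.4% over all genes, and all 3 were the Il1b cDNAs. The interleukin value thus averages a pair of AU-rich mRNAs and 1 mRNA without the motif, and the sites of 1 mRNA share their sequence.

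Positions of the proteins were compared at 1 h. All 8 TTP sites had a TTP-AA site within 15 nt, beside 76.6% of 6775 TTP 3′UTR sites over all genes. In the other direction, 30 of 69 TTP-AA sites had a TTP site within 15 nt, or 43.5% (32.4% to 55.2%), beside 21.5% over all genes. At the same nucleotide the counts were 2 of 8 and 2 of 69, both from Il1b, beside 46.0% and 5.10% over all genes. The TTP sites thus lay beside TTP-AA sites, whereas the 22 TTP-AA sites of Il1a, the second cluster of Il1b and the second and the fourth cluster of Il1rn held no TTP site. In Il1rn no nucleotide was a site of both proteins.

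To ask how the phosphorylation sites of TTP bear on binding to these mRNAs, TTP-AA was compared with TTP at 1 h. The TTP-AA list held 9.78 times the 3′UTR cDNAs of the TTP list and 1.76 times its cDNAs in all. For Il1b the values of 51 and 3 cDNAs gave a ratio of counts of 17.0 (exact 95% interval 5.50 to 85.2). For Il1a the values were 25 and 0, which is 8.33 times the 3 cDNAs that a count of 0 allows. The exact lower 95% limit for the ratio itself was 6.29. For Il1rn, 18 and 7 cDNAs gave a ratio of 2.57 (1.02 to 7.28). The median ratio over the 2065 genes with at least 10 cDNAs was 5.98 (quartiles 4 and 9.33), computed against at least 3 TTP cDNAs, which 1530 of these genes did not exceed. Counts of all 3 mRNAs were thus higher with TTP-AA, with Il1rn under the lower quartile of all genes.

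Whether these differences exceeded that of 3′UTRs in general was tested with Fisher's exact test (two-sided) against all other 3′UTR cDNAs, with Benjamini-Hochberg adjustment over the 2065 genes. None of Il1a, Il1b and Il1rn passed, beside 6.39% of all genes. The share of 3′UTR cDNAs taken by Il1b was 0.0545% with TTP-AA and 0.0314% with TTP, a ratio of 1.74 (0.562 to 8.70; Fisher's exact test, adjusted p = 0.731). The share taken by Il1a was 0.0267% with TTP-AA (0.0181% to 0.0395%), and the 0 TTP cDNAs allow up to 0.0314%, so that a difference in share was not detectable at this depth (Fisher's exact test, adjusted p = 0.490). The share taken by Il1rn was 0.0192% with TTP-AA and 0.0732% with TTP, a ratio of 0.263 (0.105 to 0.745; Fisher's exact test, p = 0.0063, adjusted p = 0.0798). Like the ratio of counts, it depends on the GU run, which held 6 of the 7 TTP cDNAs.

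Set against all cDNAs of a list instead, Il1b took 0.0292% with TTP-AA and 0.00302% with TTP, a ratio of 9.68 (3.13 to 48.5; Fisher's exact test, adjusted p = 1.22e-06). Il1a took 0.0143% with TTP-AA, which is 4.74 times the limit of 3 cDNAs for TTP (Fisher's exact test, adjusted p = 8.03e-05). The direction for Il1rn turned, with 0.0103% and 0.00705% and a ratio of 1.46 (0.583 to 4.15; Fisher's exact test, adjusted p = 0.558). In this comparison 85.4% of all genes passed, so that the call for Il1a and Il1b is that of most 3′UTRs in these lists. Each test compares 2 pooled lists and covers counting error only.

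**Figure D4:**
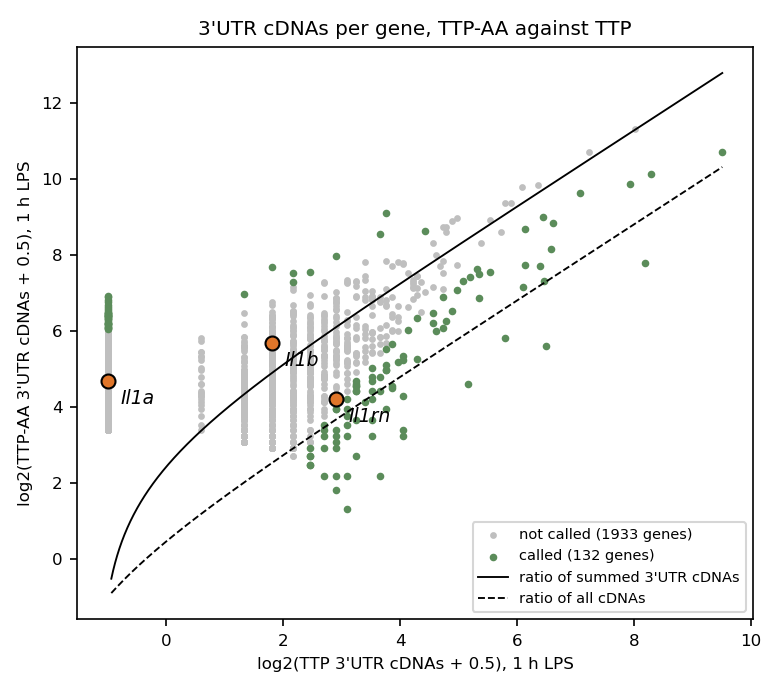
3′UTR cDNAs of the 2065 genes tested at 1 h of LPS, TTP (horizontal axis) against TTP-AA (vertical axis), each as log2 of the count plus 0.5. Grey genes did not pass the test against all 3′UTR cDNAs, green genes did, and orange circles are Il1a, Il1b and Il1rn. The lines mark the ratio of summed 3′UTR cDNAs (9.78, solid) and of all cDNAs (1.76, dashed): Il1b lies above the solid line and Il1rn between the lines.

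The time course was compared within each protein. With TTP-AA, Il1b had 0, 51 and 0 cDNAs at 0 h, 1 h and 4 h of LPS, Il1a had 0, 25 and 0, and Il1rn had 0, 18 and 0. If the 0 h list had held Il1b at its 1 h share of 3′UTR cDNAs, 3.28 cDNAs would have been present, and 9.54 at its 1 h share of all cDNAs. For the 4 h list these values were 0.545 and 5.61. For Il1a and Il1rn at 0 h, 1.61 and 1.16 cDNAs would have been present by 3′UTR cDNAs, fewer than the 3 that a count of 0 allows, and 4.68 and 3.37 by all cDNAs, which is more. None of the 3 passed the test of 1 h against 0 h over 3′UTR cDNAs (Fisher's exact test, adjusted p = 0.297 for Il1b, 0.798 for Il1a and 0.911 for Il1rn), beside 12.4% of 2052 genes. Against all cDNAs, where 24.5% of genes passed, Il1b did (3.18-fold higher at 1 h, computed against 3 cDNAs at 0 h; Fisher's exact test, adjusted p = 0.00305). Il1a and Il1rn did not (Fisher's exact test, adjusted p = 0.0817 and 0.196). From 1 h to 4 h the test over 3′UTR cDNAs could not detect a fall. At their 1 h shares, Il1b, Il1a and Il1rn would have had only 0.545, 0.267 and 0.192 cDNAs at 4 h. None of the 3 passed, beside 3.13% of 1980 genes, and no conclusion is drawn from this. Against all cDNAs none passed either, and the smallest adjusted p was 0.0563 (Fisher's exact test), for Il1b, beside 13.9% of genes that passed.

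With TTP, Il1rn had 0, 7 and 4 cDNAs at 0 h, 1 h and 4 h, and Il1b had 0, 3 and 0. The step from 0 h to 1 h had under 10 cDNAs for both and was not tested. At 4 h Il1rn took 0.442% of the 906 3′UTR cDNAs (0.172% to 1.13%), a ratio to its 1 h share of 6.03 (1.29 to 23.7; Fisher's exact test, adjusted p = 0.0545), beside 20% of 170 genes that passed. Against all cDNAs the ratio was 1.95 (0.419 to 7.68; Fisher's exact test, adjusted p = 0.342), beside 30% of genes that passed. At 4 h Il1rn had 4 TTP and 0 TTP-AA cDNAs, under the 10 cDNAs that a test required. Il1rn was thus the only interleukin mRNA with sites of either protein at 4 h, all of them in the GU run described above.

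The genes whose counts over the 6 lists were nearest to those of Il1b, by Euclidean distance of log2(cDNAs + 0.5) over 4835 genes, were Wbp11 (3 TTP and 50 TTP-AA cDNAs at 1 h), Lipa (3 and 53) and Igsf8 (3 and 54), each with 0 in the other lists. Their 3′UTRs hold 0, 2 and 1 AUUUA, against 4 in Il1b.

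Other genes of interleukin signalling were examined from lists. Of 30 other interleukin genes, 1 had a 3′UTR site: Il15, a cytokine that maintains natural killer cells and memory T cells, with 4 TTP-AA cDNAs at 1 h. In that list 21.2% of all genes had a 3′UTR site. Of 27 genes for interleukin receptors and their signalling, 11 had one in some list, for which the share over all genes was not computed. At 1 h these were 7 cDNAs in 3 of the 27 genes for TTP (6.16% of all genes) and 85 cDNAs in 10 of the 27 for TTP-AA (21.2%). Il10rb, which encodes a subunit of the interleukin-10 receptor, held 8 TTP-AA cDNAs at 0 h and 30 at 1 h, and 2 TTP cDNAs at 1 h. It was the only gene of this list to pass a test, with a lower share of 3′UTR cDNAs at 1 h than at 0 h with TTP-AA (Fisher's exact test, adjusted p = 0.0191), where 12.4% of all genes passed, 199 of them lower and 56 higher. Against all cDNAs, where 466 genes were higher and 37 lower, its share was also lower but did not pass (Fisher's exact test, adjusted p = 0.447). Il10ra, the other subunit, held 15 TTP-AA cDNAs at 1 h and none elsewhere. Traf6, the ubiquitin ligase downstream of the interleukin-1 receptor, held 5 TTP cDNAs at 0 h, 3 at 1 h, and 4 TTP-AA cDNAs at 1 h. Of 5 genes for interleukin-1 processing, 2 had a site with TTP-AA at 1 h (21.2% of all genes) and 1 with TTP (6.16%). Casp8, a protease that can cleave pro-interleukin-1β, held 31 cDNAs of TTP-AA and 2 of TTP at 1 h (Fisher's exact test, adjusted p = 0.827). Pycard, the adaptor of inflammasomes, held 2 TTP-AA cDNAs. For TTP-AA against TTP at 1 h, 0 of the 2 receptor genes tested and 0 of the 1 processing gene tested passed, beside 6.39% of all genes.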

How the data were processed

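iCLIP of GFP-TTP and GFP-TTP-AA was deposited as 6 lists of crosslink sites, 1 per group of libraries (15 samples). The deposited score of a site is a whole number of unique cDNAs, with a sign for the strand. The authors removed PCR duplicates by random barcode bases, mapped reads with Bowtie (mm10, Ensembl 75), took the nucleotide before each read, added up the libraries of each group and kept sites under an FDR of 0.05 in iCount (100 permutations, 15 nt). The headers of the 1 h lists carry an extra mark for treating regions as a unit, although all descriptions state the same handling; its effect was not tested. Short random barcodes can merge distinct cDNAs and thus lower high counts.

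Scripts ran on Python 3.11.15 with scipy 1.17.1, pandas 2.3.3, numpy 2.4.6 and matplotlib 3.10.9. Annotated regions of GENCODE M21 (GRCm38, or mm10) were matched in the order 3′UTR, coding sequence, 5′UTR, non-coding exon, intron, intergenic. A 3′UTR site counted once, for the gene with the longest 3′UTR, and nt positions refer to its longest 3′UTR form. Coordinates are 1-based. Sequences are from the GENCODE M21 transcripts.

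Genes with at least 10 cDNAs over the 2 lists compared were tested with a two-sided Fisher's exact test and Benjamini-Hochberg adjustment over all of them at a threshold of 0.05. There are no replicates, and Poisson, binomial and Wilson intervals (95%) and the limit of 3 counts cover counting error only. Wilson intervals of shares treat sites or cDNAs as independent, although those of an mRNA lie in clusters. All 7 interleukin genes are named; a gene of the other interleukin, receptor and processing lists is named if it passed a test in any comparison or was among the 3 with most 3′UTR cDNAs, and the 3 genes nearest to the interleukin mRNA with most cDNAs are named. The interleukin genes and the lists were chosen with earlier results of these data known. Alternatives changed the reference total, the minimum count, the region, the counting unit and the distances.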

Additional observations from a re-analysis of the deposited data

Results flagged for a closer look

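The 4 cDNAs of the TTP list at 0 h in intron 4 of Il10 lie outside the 3′UTR signal that was compared, and they exceed the 3 counts that a value of 0 allows. They were at 4 different nucleotides, and the other 5 lists held 0 there. Introns were not compared between the lists.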

How the results depend on the processing

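The lists are sums over libraries, so no replicate could be left out. No paired analysis was possible because the deposited lists carry no value for a single library. Of 147 alternative values, 113 kept their direction, their side of the threshold or, for counts and shares, their size. The reference total moved the 1 h comparison most: testing against all cDNAs of a list, with or without the ribosomal RNA locus of chromosome 17, gave 1763 or 1644 genes passing in place of 132 for TTP-AA against TTP at 1 h (1754 higher and 9 lower in the first, in place of 41 and 91). The ratio of shares was then 4.74 or 3.78 for Il1a, computed against 3 TTP cDNAs, and 9.68 or 7.71 for Il1b, both past the threshold. For Il1rn, whose direction turned, it was 1.46 or 1.17. For TTP-AA at 1 h against 0 h these totals gave 503 or 488 in place of 255 (466 higher and 37 lower in place of 56 and 199), and at 4 h against 1 h 276 or 261 in place of 62 (5 higher and 271 lower in place of 60 and 2). The first of these totals kept the other counts within 1.5 times but moved their split: 59 higher and 19 lower in place of 42 and 32 for TTP-AA against TTP at 0 h, 10 and 4 in place of 9 and 8 at 4 h, 32 and 93 in place of 66 and 65 for TTP at 1 h against 0 h, and 4 and 47 in place of 24 and 10 for TTP at 4 h against 1 h. Counting sites and not cDNAs gave 31 in place of 74 at 0 h, 7 in place of 17 at 4 h (both TTP-AA against TTP), and 67 in place of 131 for TTP at 1 h against 0 h. Using only sites with at least 2 cDNAs gave 31 at 0 h, 64 at 1 h and 10 at 4 h for TTP-AA against TTP, 47 for TTP at 1 h against 0 h, 14 in place of 34 for TTP at 4 h against 1 h, and 90 and 19 for the same steps of TTP-AA. A minimum of 5 cDNAs gave 156 at 0 h and 51 at 4 h. Between 4 h and 1 h, no minimum gave 54 with TTP and 109 with TTP-AA. All exons gave 218 for TTP-AA against TTP at 1 h and 56 for TTP at 4 h against 1 h. The share of TTP sites of the interleukin genes with a TTP-AA site was 25% at the same nucleotide in place of 100%. Among sites with at least 2 cDNAs it was 0%, but of 2 sites only (Wilson interval 0% to 65.8%), beside 83.2% over all genes. The reverse share was 2.90% and 0% in place of 43.5%, the 0% being of 17 sites, beside 24.5% over all genes. Most interleukin sites hold 1 cDNA, and with at most 7 TTP cDNAs per mRNA the depth leaves wide intervals. The cause of these shifts was not tested.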
